A study of Mus musculus with 10 samples.

Results

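The 10 genes described here encode ligands of the tumor necrosis factor (TNF) superfamily: Lta, Ltb, Tnf, Fasl, Tnfsf10, Tnfsf14, Tnfsf8, Tnfsf11, Tnfsf4 and Tnfsf9. They were chosen by gene symbol from the 57825 genes of the deposited table, each symbol was listed once, and all 10 lay among the 15710 genes tested, those averaging 0.5 FPKM or more over the samples. FPKM are fragment counts divided by the length of the gene and by the total of the sample, so levels of different genes can be set side by side. The samples were CD8+ T cells from the spleens of female Balb/c mice (the study used mice of 7 to 8 weeks), activated on plate-bound anti-CD3 with anti-CD28 and IL-2 for 12 h, kept with or without acetate for 24 h, then co-cultured for 48 h with 4T1 cells, a mouse mammary carcinoma line, and labelled day 3. One group of 5 samples received no acetate (CD8+4T1) and the other group of 5 received 5 mM sodium acetate (CD8+4T1+NaAc); there was no group without tumor cells, and activation and co-culture were common to all 10 samples. The study's question for these libraries was how acetate affects CD8+ T cells in the presence of tumor cells. Nothing in the labels or methods says whether the samples of a group came from separate animals or cultures, so the p-values measure the spread between these samples, which may be technical.

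TNF superfamily ligands are mostly type II membrane proteins that assemble as trimers and act on receptors of neighbouring cells, and some of them are also released in soluble form. In activated T cells they serve killing (Fas ligand and TRAIL), inflammation (TNF), the organisation of lymphoid tissue (the lymphotoxins) and costimulation (OX40L, LIGHT, CD30L and 4-1BBL). Lymphotoxin alpha is the exception in form: it is secreted as a homotrimer, or held at the membrane in heterotrimers with lymphotoxin beta, and the latter bind the lymphotoxin beta receptor.

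The total behind the FPKM was 16306447 to 17443395 fragments per CD8+4T1 sample and 16503701 to 18853726 per CD8+4T1+NaAc sample. Replicate 1 of each group stood apart, with 22291 genes above 0 FPKM in CD8+4T1 and 20233 in CD8+4T1+NaAc, the fewest of its group. Results for the ligand genes and their ratios are therefore also given without both. Of the T cell markers, all 10 were tested and 6 were lower and 0 higher with acetate, where 19.0% of all genes tested were lower and 17.6% higher; with the same summed FPKM 4 were lower and 2 higher (8.83% and 31.2%). The 6 lower on the FPKM as listed were Cd3d, Cd3e, Cd3g, Cd2, Cd5 and Lck. Cd8a (log2 fold change -0.04), Cd8b1 (0.17), Thy1 (-0.10) and Cd247 (-0.02) were not called (limma adjusted p = 0.208 to 0.898). The T cell markers had a summed level of 832 to 939 FPKM in CD8+4T1 and 764 to 837 FPKM in CD8+4T1+NaAc. Of 17 names listed as markers of epithelial and 4T1 cells, 16 were in the table (the other is an older name of Ccn1), 11 were tested and 9 were higher (17.6% of all genes tested), with a summed level of 12.04 to 24.6 FPKM in CD8+4T1 and 92.7 to 240.1 FPKM in CD8+4T1+NaAc. Markers of NK cells summed to at most 1.11 FPKM and those of B cells to at most 6.24 FPKM in any sample. Myeloid markers summed to 26.4 to 36.8 FPKM in CD8+4T1 and 29.9 to 34.4 FPKM in CD8+4T1+NaAc, with S100a9 at 0 in all samples and 2 of 5 tested higher (S100a8 by 2.86 and Lyz2 by 0.96 on the log2 scale). Cd4, the helper T cell marker, rose from 0.541 to 1.60 FPKM (log2 fold change 1.44, limma adjusted p = 0.000317), while Foxp3, the regulatory T cell marker, had 0.221 and 0.179 FPKM and was not tested. By the study's methods the RNA came from purified CD8+ T cells. The part of the other cell types named here in the results was not tested. In bulk RNA fewer cells of a type cannot be told apart from less RNA per cell.

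Lta, Tnf and Ltb lie side by side. The deposited table, whose genome build is not given in the sources used here, lists Ltb on chromosome 17 from 35413415 to 35415296 on the plus strand, Tnf from 35418357 to 35420983 and Lta from 35422141 to 35424327, both on the minus strand. Lta and Tnf are thus 1.2 kb apart and Tnf and Ltb 3.1 kb apart. Tnfsf9 and Tnfsf14 lie 81.7 kb apart on the same chromosome, on either side of Cd70, and Fasl and Tnfsf4 lie 362.3 kb apart on chromosome 1. RefSeq promoters of build GRCm38.p6 (250 bases before to 50 after the gene's start) matched 8 of the 10 genes; Tnfsf4 and Tnfsf9 had none.

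The promoters of the 3 neighbours, and that of Tnfsf14, another gene that was lower with acetate, are printed 5′ to 3′ on the gene's own strand. Capitals mark every match, on either strand, to the letters of 4 motifs. These were TGANTCA for the factor AP-1, GGAAAA for NFAT, TATAAA for the TATA box and, for NF-kB, GGG followed by any 2 bases and then TTTCC, none of which overlapped in the windows printed. They are at chr17:35205302-35205601 (Lta, minus strand), chr17:35201958-35202257 (Tnf, minus strand), chr17:35194257-35194556 (Ltb, plus strand) and chr17:57194132-57194431 (Tnfsf14, minus strand).
Lta: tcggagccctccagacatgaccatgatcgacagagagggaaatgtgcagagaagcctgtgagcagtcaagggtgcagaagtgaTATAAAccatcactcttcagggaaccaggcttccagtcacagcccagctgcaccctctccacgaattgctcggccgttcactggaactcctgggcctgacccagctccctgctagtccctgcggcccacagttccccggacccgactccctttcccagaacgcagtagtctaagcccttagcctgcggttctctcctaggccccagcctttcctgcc
Tnf: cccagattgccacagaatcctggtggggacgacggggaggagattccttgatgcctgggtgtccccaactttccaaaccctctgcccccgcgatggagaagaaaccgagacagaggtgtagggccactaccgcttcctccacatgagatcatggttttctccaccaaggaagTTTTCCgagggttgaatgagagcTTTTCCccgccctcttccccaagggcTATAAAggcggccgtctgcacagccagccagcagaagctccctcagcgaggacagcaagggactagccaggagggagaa
Ltb: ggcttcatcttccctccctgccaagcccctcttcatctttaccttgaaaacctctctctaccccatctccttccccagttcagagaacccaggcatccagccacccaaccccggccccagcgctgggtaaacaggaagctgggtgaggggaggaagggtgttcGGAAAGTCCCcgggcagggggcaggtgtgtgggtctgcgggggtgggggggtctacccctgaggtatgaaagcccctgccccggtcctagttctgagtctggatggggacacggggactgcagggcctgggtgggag
Tnfsf14: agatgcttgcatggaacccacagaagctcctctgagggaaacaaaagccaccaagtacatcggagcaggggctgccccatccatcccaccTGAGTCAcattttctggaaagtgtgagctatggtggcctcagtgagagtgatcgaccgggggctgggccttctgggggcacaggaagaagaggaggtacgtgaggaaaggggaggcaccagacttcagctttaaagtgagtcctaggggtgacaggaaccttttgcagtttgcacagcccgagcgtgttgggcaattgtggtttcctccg

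In the Tnf window 2 NFAT matches began 78 and 55 bases before the start and a TATA match 29 bases before it. The Lta window held a TATA match 167 bases before the annotated start, the Ltb window an NF-kB match 87 bases before it and the Tnfsf14 window an AP-1 match 160 bases before it. Of all 32851 promoters in the RefSeq set, 7.81% held the AP-1 letters, 1.63% the NF-kB letters, 23.4% the NFAT letters and 13.6% the TATA letters. Among the other members, Fasl had an NFAT match, Tnfsf11 a TATA match, and the windows of Tnfsf8 and Tnfsf10 had none of the 4. These are matches of letters in a window of 300 bases and not binding sites.

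With acetate, 4 of the 10 ligand genes were lower (Lta, Ltb, Tnfsf8 and Tnfsf14) and 0 were higher in limma at a Benjamini-Hochberg adjusted p under 0.05 over all genes tested. Over all genes tested 19.0% were lower and 17.6% were higher by the same rule, 2978 and 2764 of 15710, or 36.5% in either direction. At an unadjusted p under 0.05, 2 members were higher (Tnf and Fasl) and 5 lower (those 4 and Tnfsf11), beside 22.1% and 23.8% of all genes tested. The median log2 fold change of the 10 genes was -0.18, beside -0.02 over all genes tested. The groups did not overlap in FPKM for 3 members (Lta, Ltb and Tnfsf8), all of them lower, where 13.3% of all genes tested were lower without overlap and 26.4% did not overlap in either direction. Lta alone passed an absolute log2 fold change of 1, as did 1.60% of all genes tested in the lower direction and 4.87% in the higher one, each with the adjusted p. Without replicate 1 of both groups the same 4 genes were called lower and 0 higher, beside 22.6% and 21.8% of all genes tested.

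**Figure D1:**
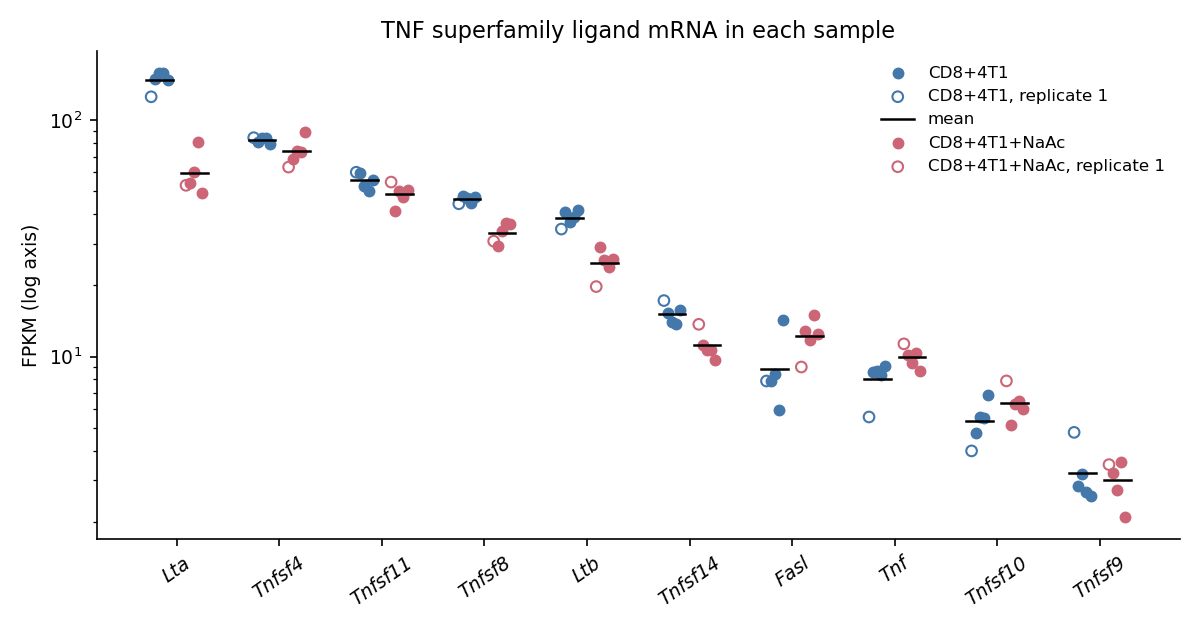
FPKM (log axis) of each ligand gene in each of the 10 samples, blue for CD8+4T1 and red for CD8+4T1+NaAc, with open circles for replicate 1 and a line at the mean of each group. Lta stands at 125 to 158 FPKM without acetate and at 49.3 to 81.0 FPKM with it, while the groups of Tnfsf4, Tnfsf11, Fasl, Tnf, Tnfsf10 and Tnfsf9 overlap and those of Tnfsf14 touch.

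Lta (ENSMUSG00000024402), the lymphotoxin alpha gene, showed the largest difference among the members. Replicates 1 to 5 of CD8+4T1 had 125, 149, 158, 158 and 148 FPKM, and those of CD8+4T1+NaAc had 52.9, 54.2, 60.1, 81.0 and 49.3 FPKM. Each sample with acetate lay below each sample without it, and the replicate nearest to the other group was the fourth of CD8+4T1+NaAc. The mean level in the presence of acetate was 0.403 of that in its absence (148 ± 13.4 against 59.5 ± 12.6 FPKM, SD, n = 5 each). The log2 fold change was -1.33 (standard error 0.13, 95% interval -1.60 to -1.05, limma adjusted p = 3.84e-05). Between 1132 and 3603 fragments lay behind each value, and 1.58% of all genes tested had a lower log2 fold change.

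Ltb (ENSMUSG00000024399) encodes lymphotoxin beta, the membrane-bound partner of lymphotoxin alpha. Its level was 34.6, 40.8, 37.0, 38.9 and 41.7 FPKM in replicates 1 to 5 of CD8+4T1, and 19.8, 29.2, 25.7, 23.8 and 25.9 FPKM in those of CD8+4T1+NaAc. The groups did not overlap, and replicate 1 was the lowest of both groups. On the log2 scale Ltb fell by 0.64 (standard error 0.10, 95% interval of the change -0.85 to -0.43, limma adjusted p = 0.000496). Without replicate 1 of both groups it was -0.60 for Ltb and -1.35 for Lta, and with T cell marker scaling -0.41 and -1.10.

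Tnf (ENSMUSG00000024401), the gene between them, did not follow this direction. CD8+4T1 replicates 1 to 5 had 5.55, 8.60, 8.68, 8.33 and 9.13 FPKM, and CD8+4T1+NaAc replicates had 11.3, 10.2, 9.39, 10.4 and 8.67 FPKM. The groups overlapped, with replicate 5 with acetate inside the range of the group without, and replicate 1 of CD8+4T1 was well below the other samples. For Tnf the log2 fold change was 0.32 (standard error 0.13, 95% interval 0.03 to 0.61), with an unadjusted p of 0.0324 and an adjusted p of 0.0777 in limma. Leaving out replicate 1 of CD8+4T1 alone brought the log2 fold change of Tnf to 0.19 (limma adjusted p = 0.0811), and leaving out replicate 1 of both groups brought it to 0.15. When the samples were rescaled to the same summed FPKM, Tnf passed the test (log2 fold change 0.50, limma adjusted p = 0.00755).

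Ratios within a sample do not depend on how that sample was scaled. The FPKM of Lta relative to Tnf was 22.6, 17.3, 18.2, 19.0 and 16.2 in replicates 1 to 5 of CD8+4T1 and 4.68, 5.33, 6.40, 7.79 and 5.68 in those of CD8+4T1+NaAc. Lta transcripts thus exceeded Tnf transcripts in all 10 samples, by a ratio of 18.6 ± 2.43 (SD, n = 5) without acetate and 5.98 ± 1.19 (SD, n = 5) with it. With acetate the log2 ratio differed by -1.65 (exact permutation test, two-sided, p = 0.00794, the smallest p that 5 samples against 5 allow). The ratios of Lta to Ltb and Ltb to Tnf below had the same p, so adjustment over the 3 ratios could not change it. All 3 ratios are formed from the same 3 genes, so their tests are not separate results.

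Lta also fell relative to its partner Ltb. The ratio of Lta to Ltb was 3.55 to 4.27 in CD8+4T1 and 1.86 to 3.404 in CD8+4T1+NaAc, without overlap, and replicate 4 of CD8+4T1+NaAc was the highest of its group. The difference in the log2 ratio was -0.69 (exact permutation test, two-sided, p = 0.00794). The ratio of Ltb to Tnf went from 4.26 to 6.23 across the samples without acetate to between 1.75 and 2.98 with it, a log2 difference of -0.97 (exact permutation test, two-sided, p = 0.00794). Without replicate 1 of both groups the 3 log2 differences were -1.50 for Lta to Tnf, -0.75 for Lta to Ltb and -0.75 for Ltb to Tnf (exact permutation test, two-sided, p = 0.0286 for each, the smallest that 4 against 4 allow).

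**Figure D2:**
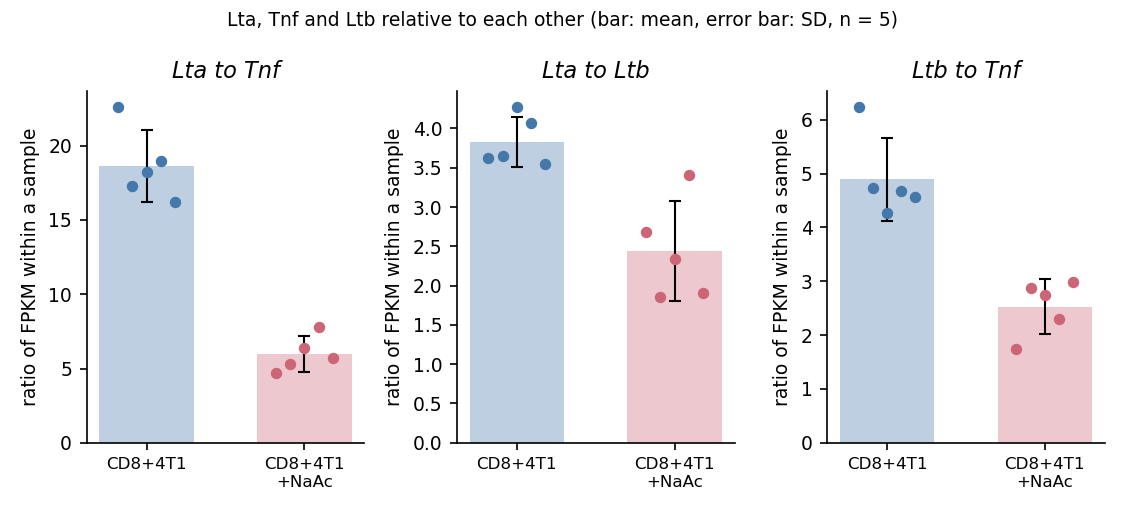
Ratio of the FPKM of Lta to Tnf, Lta to Ltb and Ltb to Tnf within each sample (points, replicates 1 to 5 from left to right), with the mean (bar) and SD (error bar) of the 5 samples of each group. In each of the 3 panels every CD8+4T1+NaAc sample lies below every CD8+4T1 sample, with the mean of Lta to Tnf at 5.98 against 18.6.

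Within 50 kb of the 3 genes 18 other genes were listed, of which 14 were tested, 1 was lower and 0 were higher (limma, adjusted p under 0.05, beside 19.0% and 17.6% of all genes tested). Only 7 of the 14 were protein-coding. The other tested neighbours had at most 32 fragments in any sample, where a change is hard to call. The one that passed was Lst1, a leukocyte-specific transcript near Ltb, which had 3.26 ± 0.812 FPKM without and 2.20 ± 0.510 FPKM with acetate (SD, n = 5 each; log2 fold change -0.54, limma adjusted p = 0.0474). It rested on 13 to 30 fragments per sample, and its call was lost under each other scaling, with limma adjusted p from 0.0505 with median-ratio scaling to 0.245 with voom on the recovered fragments. It was also lost with the replicate block (0.126), without the limit on low values (0.0895), without trend and robust moderation (0.0575) and when replicate 1, 2, 3 or 4 of CD8+4T1 or replicate 2, 3 or 4 of CD8+4T1+NaAc was left out (0.0517 to 0.107). The abundant neighbours did not pass the test. Bag6 had a log2 fold change of -0.000675 (95% interval -0.12 to 0.12) and Prrc2a one of 0.14 (95% interval -0.06 to 0.34). Ddx39b, an RNA helicase gene, had 0.16 (95% interval 0.01 to 0.30, limma adjusted p = 0.0831).

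The costimulatory ligands with a lower level were Tnfsf8 and Tnfsf14. Tnfsf8 (ENSMUSG00000028362, chromosome 4 from 63749545 to 63779584) encodes CD30 ligand. Replicates 1 to 5 had 44.2, 47.6, 47.0, 44.6 and 47.4 FPKM in CD8+4T1 and 30.7, 29.2, 33.8, 36.8 and 36.3 FPKM in CD8+4T1+NaAc. The groups did not overlap, and the spread without acetate was small, a coefficient of variation of 3.51% where counting alone gives 1.85%. On the log2 scale Tnfsf8 changed by -0.47 (standard error 0.07, 95% interval -0.62 to -0.32, limma adjusted p = 0.000381), by -0.46 without replicate 1 of both groups and by -0.24 with T cell marker scaling.

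Tnfsf14 (ENSMUSG00000005824, chromosome 17 from 57496492 to 57501177) encodes LIGHT, which binds both HVEM and the lymphotoxin beta receptor. It had 17.2, 15.2, 14.0, 13.7 and 15.7 FPKM in replicates 1 to 5 of CD8+4T1 and 13.7, 11.2, 10.6, 10.6 and 9.65 FPKM in those of CD8+4T1+NaAc. Replicate 1 was the highest of both groups, and with acetate it reached the lower end of the other group, so that the groups touched. For Tnfsf14 the log2 fold change was -0.45 (standard error 0.09, 95% interval -0.66 to -0.24, limma adjusted p = 0.00402), and -0.47 without replicate 1 of both groups. The call of Tnfsf14 depended on the scaling, with a log2 fold change of -0.27 (limma adjusted p = 0.0691) after rescaling to the same summed FPKM and -0.22 (limma adjusted p = 0.199) after scaling to T cell markers.

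The other costimulatory ligands did not pass the test. Tnfsf4, which encodes OX40 ligand, had 79.3 to 84.2 FPKM in CD8+4T1 (median 83.7) and a wider range of 63.2 to 88.7 FPKM in CD8+4T1+NaAc (median 73.5). In all, 4 of the 5 samples with acetate were below all samples without it, and replicate 5 was above all of them. The log2 fold change of Tnfsf4 was -0.17 (95% interval -0.35 to 0.0031, limma adjusted p = 0.114), and without that replicate it was -0.24 (limma adjusted p = 0.00922). Leaving out replicate 1 of both groups gave -0.11. Tnfsf9, which encodes 4-1BB ligand, was the lowest of the 10, at 2.58 to 4.78 FPKM in CD8+4T1 and 2.10 to 3.57 FPKM in CD8+4T1+NaAc, from 45 to 103 fragments. Its log2 fold change was -0.08 (95% interval -0.49 to 0.34, limma adjusted p = 0.785), an interval that leaves room for a change of either sign. Its listed position overlaps that of Gm11110, a noncoding gene on the opposite strand, and the strand setting of the counting is not given in the sources used here, so reads may belong to either gene.

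Tnfsf11 encodes RANK ligand, known from bone and from the contact of T cells with dendritic cells. It was among the most abundant members, at 50.05 to 60.1 FPKM in CD8+4T1 (median 55.6) and 41.4 to 54.6 FPKM in CD8+4T1+NaAc (median 49.97), with overlap of the groups. The log2 fold change of Tnfsf11 was -0.19 (95% interval -0.37 to -0.02, unadjusted p = 0.0348, limma adjusted p = 0.0824). Leaving out replicate 1 of CD8+4T1+NaAc gave -0.23 (limma adjusted p = 0.0275), leaving out replicate 1 of both groups -0.21, and scaling to T cell markers 0.038.

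The 2 ligands known best for killing through death receptors had higher means with acetate and did not pass the test on the FPKM as listed. Fasl (ENSMUSG00000000817, chromosome 1 from 161608258 to 161616064), the gene of Fas ligand, had 7.88, 7.90, 8.45, 5.95 and 14.3 FPKM in replicates 1 to 5 of CD8+4T1. In CD8+4T1+NaAc these were 9.03, 12.8, 11.8, 14.9 and 12.5 FPKM. The overlap came from replicate 5 of CD8+4T1, the second highest of all 10 samples, while the other 4 of that group were below every sample with acetate. For Fasl the log2 fold change was 0.49 (standard error 0.21, 95% interval 0.03 to 0.96), with an unadjusted p of 0.0382 and an adjusted p of 0.0886 in limma. Leaving out replicate 5 of CD8+4T1 gave 0.68 (limma adjusted p = 0.00647), and leaving out replicate 1 of CD8+4T1+NaAc gave 0.60 (limma adjusted p = 0.0457). Fasl had 0.57 without replicate 1 of both groups. The coefficient of variation of Fasl without acetate was 35.6%, against 5.90% from counting.

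Tnfsf10, which encodes TRAIL, had 3.99 to 6.87 FPKM in CD8+4T1 (median 5.47) and 5.12 to 7.89 FPKM in CD8+4T1+NaAc (median 6.28). Replicate 1 was the lowest sample without acetate and the highest with it. The log2 fold change of Tnfsf10 was 0.26 (95% interval -0.06 to 0.58, limma adjusted p = 0.195), and it was 0.08 without replicate 1 of both groups.

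**Figure D3:**
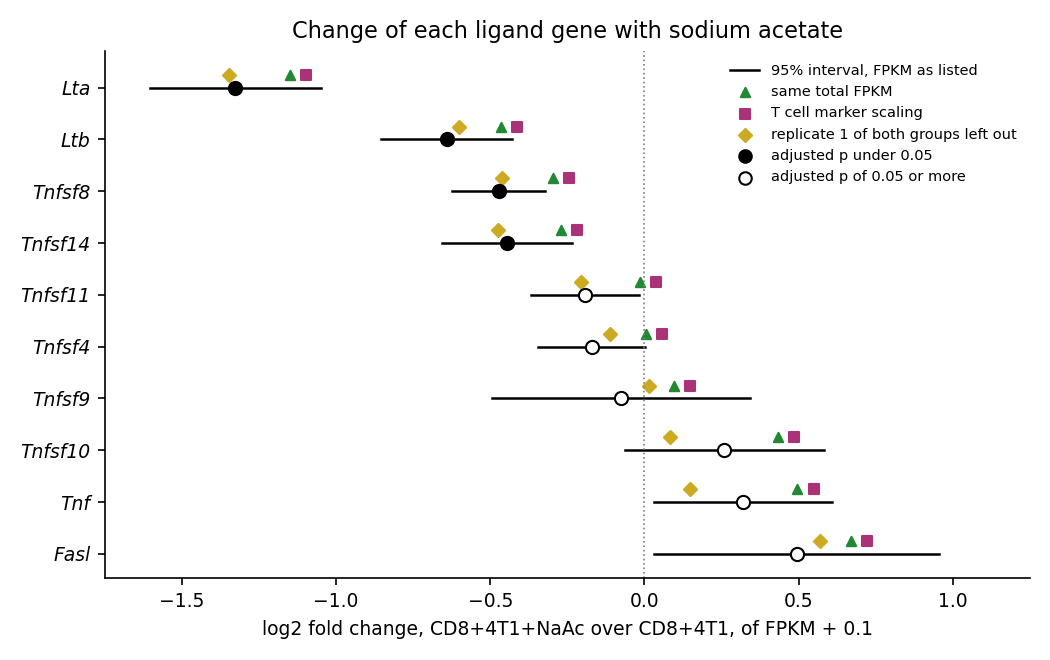
Log2 fold change of each ligand gene, CD8+4T1+NaAc over CD8+4T1, on the log2(FPKM + 0.1) scale (circles, filled where the limma adjusted p is under 0.05) with its 95% interval, and the value under 2 other scalings (triangles and squares) and without replicate 1 of both groups (diamonds). Lta, at -1.33, keeps to the left under each setting shown, Ltb, Tnfsf8 and Tnfsf14 follow, and Tnfsf11, Tnfsf4 and Tnfsf9 change sign with at least 1 of the settings.

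Scaling mattered for the smaller differences. The listed genes held 95.5 to 97.9% of the fragments in CD8+4T1 samples and 89.8 to 92.1% in CD8+4T1+NaAc samples. Rescaling to the same summed FPKM moved the median log2 difference over all genes from -0.02 to 0.15. Under this rescaling Lta (-1.15), Ltb (-0.46) and Tnfsf8 (-0.30) were still called lower, and Tnf (0.50), Fasl (0.67) and Tnfsf10 (0.43) were called higher. Of all genes tested 31.2% were then called higher and 8.83% lower. Scaling to the T cell markers called the same 3 genes higher, with log2 fold changes of 0.55 for Tnf, 0.72 for Fasl and 0.48 for Tnfsf10, and the same 3 lower, where the median of all genes was 0.21 and 34.7% of them were called higher and 6.37% lower. A limma fit on the recovered fragments with voom weights also called these 3 higher and the 4 named first lower, with 25.4% and 13.4% of all genes. Relative to the median of all genes tested, Tnf stood at 0.34 on the log2 scale in each of these and on the FPKM as listed.

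The order of the levels differed between the groups at its upper end. Without acetate it ran Lta, Tnfsf4, Tnfsf11, Tnfsf8, Ltb, Tnfsf14, Fasl, Tnf, Tnfsf10 and Tnfsf9, and the ranges of neighbours did not overlap down to Ltb and Tnfsf14. From Tnfsf14 downwards each gene overlapped the next. With acetate Tnfsf4 had the highest mean (73.6 FPKM), and its range overlapped that of Lta, which in turn overlapped that of Tnfsf11. Fasl had a mean of 12.2 FPKM, above Tnfsf14 (11.2) and Tnf (9.98), and these neighbours did not differ beyond their spread.

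Summed over the 10 genes, the level was 388 to 421 FPKM in CD8+4T1 and 265 to 308 FPKM in CD8+4T1+NaAc. Lta made up 32.3 to 38.4% of this sum without acetate and 17.0 to 26.3% with it. The share of Tnfsf4 was 18.9 to 21.7% and 23.7 to 30.6%, and that of Tnf was 1.43 to 2.17% and 2.99 to 4.24%, also without overlap. The share of Tnfsf8, in contrast, was 10.8 to 11.4% and 11.0 to 12.5%, and that of Ltb 8.85 to 9.92% and 7.41 to 11.0%. Shares of one sum move against each other.

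**Figure D4:**
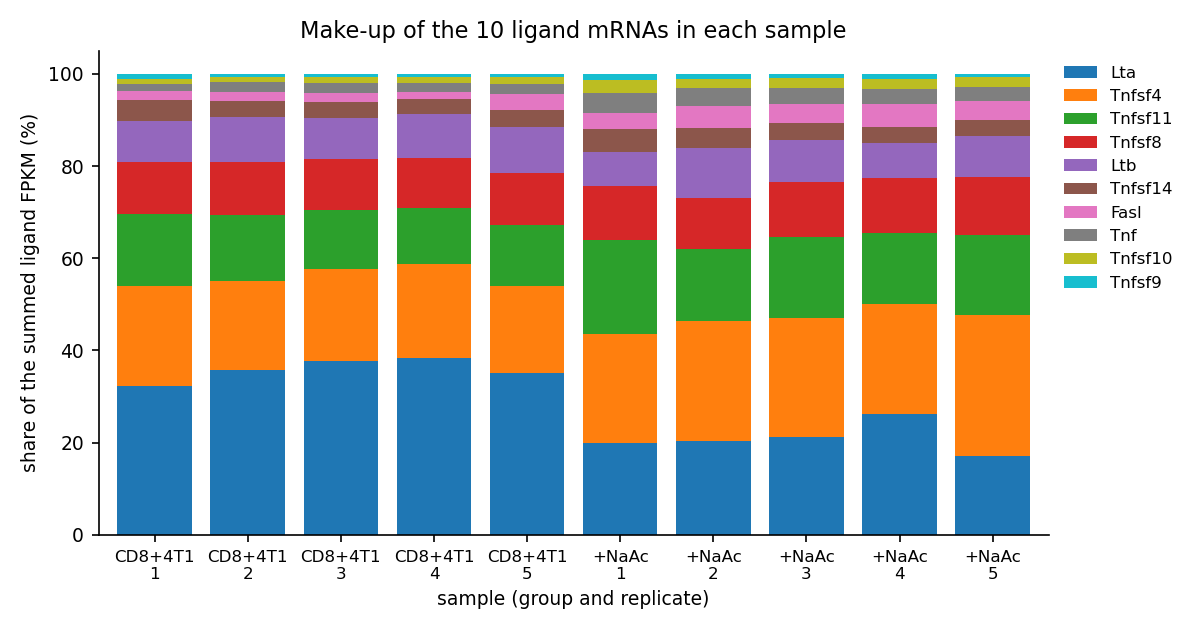
Share (%) of each ligand gene in the FPKM summed over the 10 ligand genes, 1 bar per sample, replicates 1 to 5 of CD8+4T1 on the left and of CD8+4T1+NaAc (marked +NaAc) on the right. The share of Lta is at least 32.3% in each sample without acetate and at most 26.3% in each sample with it.

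Of 8 further ligands of the superfamily, Cd70 and Cd40lg were tested and the others were below the limit on low values. Cd70, a costimulatory ligand that lies between Tnfsf9 and Tnfsf14, had 6.77 ± 1.07 FPKM without and 4.82 ± 0.985 FPKM with acetate (SD, n = 5 each; log2 fold change -0.49, limma adjusted p = 0.0230). After rescaling to the same summed FPKM its log2 fold change was -0.31 (limma adjusted p = 0.104), and with the replicate number as a block the adjusted p was 0.0536. Leaving out replicate 2, 3 or 5 of CD8+4T1 or replicate 3 or 5 of CD8+4T1+NaAc also ended the call of Cd70 (limma adjusted p = 0.0511 to 0.0576). Cd40lg, the CD40 ligand typical of helper T cells, had 0.489 FPKM without acetate and 0.736 FPKM with it (log2 fold change 0.53, limma adjusted p = 0.176), from 6 to 22 fragments, and its log2 fold change was 0.22 with a pseudocount of 1. Tnfsf12, Tnfsf13, Tnfsf13b, Tnfsf15, Tnfsf18 and Eda had means of at most 0.229 FPKM in either group.

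The receptors of these ligands were considered as a list of 13 genes, of which 12 were tested. By the same rule 4 were higher and 5 were lower (17.6% and 19.0% of all genes tested), and after rescaling to the same summed FPKM 4 were higher and 3 lower (31.2% and 8.83%). Leaving out replicate 1 of both groups gave 4 higher and 4 lower (21.8% and 22.6%). Those called higher included 3 receptors of TNF and of membrane lymphotoxin. Tnfrsf1a, the widely expressed death domain receptor TNFR1, had 8.90 ± 0.728 FPKM without and 14.5 ± 2.22 FPKM with acetate (log2 fold change 0.69, limma adjusted p = 0.000493). Tnfrsf1b, the TNFR2 gene of activated T cells, had 40.7 ± 1.38 FPKM without acetate and 64.0 ± 8.19 FPKM with it (log2 fold change 0.64, limma adjusted p = 0.000219).

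Ltbr, the lymphotoxin beta receptor, which is characteristic of stromal, epithelial and myeloid cells rather than lymphocytes, was low without acetate and higher with it. It had 2.25 ± 0.312 FPKM without acetate and 5.29 ± 1.44 FPKM with it (log2 fold change 1.16, limma adjusted p = 0.000587), with 73 to 325 fragments behind the values. Of the 4T1 markers, 9 of 11 tested rose over the same samples. Epcam (0.519 FPKM without and 0.699 FPKM with acetate, limma adjusted p = 0.305) and Cldn7 (0.649 and 0.637 FPKM, limma adjusted p = 0.994) were not called. The sum over the 16 markers listed was at most 24.6 FPKM without acetate and at least 92.7 FPKM with it. The part of 4T1 cells in the level of Ltbr was not tested, and the methods name purified CD8+ T cells as the source of the RNA. None of the 16 markers in the table was at 0 in all samples.

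Among the death receptors, Fas had 46.1 ± 1.998 FPKM without acetate and 37.1 ± 5.33 FPKM with it (log2 fold change -0.32, limma adjusted p = 0.0193), and its call was lost with the same summed FPKM (-0.15, limma adjusted p = 0.2496), while without replicate 1 of both groups it was -0.21 (limma adjusted p = 0.0175). Tnfrsf10b, the mouse death receptor of TRAIL, fell from 21.96 ± 0.637 to 15.3 ± 0.340 FPKM (log2 fold change -0.52, limma adjusted p = 1.54e-05) and was called under each scaling, at -0.29 with T cell markers. Of the TRAIL decoy receptors, Tnfrsf22 rose from 1.80 to 4.38 FPKM (log2 fold change 1.23, limma adjusted p = 0.000252) and Tnfrsf23 had 2.36 and 2.53 FPKM (limma adjusted p = 0.681). Tnfrsf11b, osteoprotegerin, a soluble decoy of RANK ligand and TRAIL, fell from 1.49 to 0.499 FPKM (log2 fold change -1.64, limma adjusted p = 0.00829), from 5 to 80 fragments, and its log2 fold change was -0.76 with a pseudocount of 1. Tnfrsf11a, the RANK gene, had means of 0.276 and 0.236 FPKM and was not tested.

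Of the costimulatory receptors, Tnfrsf9, the 4-1BB gene, was the most abundant and fell from 481 ± 18.8 to 324 ± 16.2 FPKM (log2 fold change -0.57, limma adjusted p = 3.41e-05), a call kept under each scaling, at -0.34 with T cell markers. Tnfrsf14, the HVEM gene, had 16.9 FPKM without acetate and 13.8 FPKM with it (log2 fold change -0.29, limma adjusted p = 0.0284, and 0.382 with the same summed FPKM). Without replicate 1 of both groups the call of Tnfrsf14 was lost (limma adjusted p = 0.0810), as it was without replicate 1, 2 or 3 of CD8+4T1 or replicate 3 of CD8+4T1+NaAc and, at 0.0823, with the replicate block. Tnfrsf4, the OX40 gene, had 48.7 FPKM without acetate and 45.1 FPKM with it (log2 fold change -0.11, 95% interval -0.26 to 0.04, limma adjusted p = 0.236), and Tnfrsf8, the CD30 gene, 1.42 FPKM without acetate and 1.78 FPKM with it (log2 fold change 0.29, limma adjusted p = 0.249). With T cell marker scaling Tnfrsf8 was called higher (0.50, limma adjusted p = 0.0436), and without replicate 4 of CD8+4T1+NaAc its log2 fold change was 0.15.

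**Figure D5:**
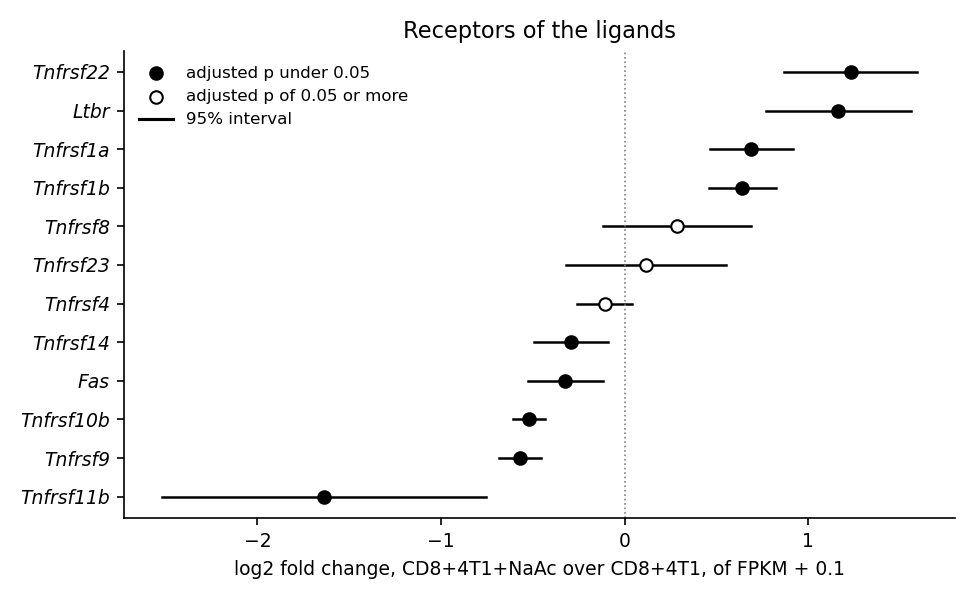
Log2 fold change of the 12 tested receptor genes, CD8+4T1+NaAc over CD8+4T1, on the log2(FPKM + 0.1) scale, with 95% intervals and filled circles where the limma adjusted p is under 0.05. Tnfrsf22, Ltbr, Tnfrsf1a and Tnfrsf1b lie to the right of 0, and Tnfrsf14, Fas, Tnfrsf10b, Tnfrsf9 and Tnfrsf11b to the left.

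Of 18 genes of receptor adaptors and death signalling, all tested, 2 were higher and 7 lower on the FPKM as listed (17.6% and 19.0% of all genes tested), and 5 were higher and 4 lower after rescaling to the same summed FPKM (31.2% and 8.83%). The largest falls were those of Cflar, the FLIP inhibitor of caspase 8 (20.8 ± 1.18 against 14.6 ± 1.03 FPKM, log2 fold change -0.51, limma adjusted p = 0.000128), and of Birc3, the ubiquitin ligase cIAP2 (11.9 ± 0.697 against 8.34 ± 0.788 FPKM, log2 fold change -0.51, limma adjusted p = 0.000387). Both were still called lower under each scaling, at -0.28 each with T cell markers.

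Of 9 genes of ligand shedding and processing, 8 were tested, 3 were higher and 1 was lower (17.6% and 19.0% of all genes tested), and 5 were higher and 0 lower with the same summed FPKM (31.2% and 8.83%). Adam17, the protease that releases soluble TNF, had a log2 fold change of 0.09 (limma adjusted p = 0.178, and 0.00301 with the same summed FPKM), and Rhbdf2, which encodes the carrier that brings ADAM17 to the surface, one of -4.3e-05 (95% interval -0.19 to 0.19). Those that rose by over 0.5 were Mmp14, a membrane matrix protease (1.32 to 3.56 FPKM, log2 fold change 1.36), Rhbdf1 (2.20 to 4.03 FPKM, 0.84) and Sppl2b, an intramembrane protease (3.63 to 5.67 FPKM, 0.62), each with a limma adjusted p of at most 0.00254. They rose over the same samples as 9 of the 11 tested 4T1 markers, and the part of 4T1 cells in their levels was not tested.

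Of 12 genes of mRNA decay factors, all tested, 2 were higher and 4 were lower, and 4 were higher and 0 lower with the same summed FPKM. Over all genes tested 17.6% were higher and 19.0% lower as listed, and 31.2% and 8.83% with the same summed FPKM. The shares called higher were thus near those of all genes. The 4 lower as listed were Rc3h2, Zc3h12d, Hnrnpd and Elavl1. Leaving out replicate 1 of both groups gave 3 higher and 6 lower (21.8% and 22.6% of all genes tested). The 2 that rose encode tristetraprolin and a relative of it, proteins that bind AU-rich elements and are known to limit TNF mRNA: Zfp36 (a mean of 7.5 ± 0.894 against 11.3 ± 1.88 FPKM, log2 fold change 0.57, limma adjusted p = 0.00531) and Zfp36l2 (29.1 ± 4.27 against 41.5 ± 8.49 FPKM, log2 fold change 0.50, limma adjusted p = 0.0148). Both were called higher under each scaling.

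The pattern of Lta over the 10 samples was compared with that of the other protein-coding genes averaging 5 FPKM or more (7053 genes, Lta included). The closest were Treml2 (Pearson r = 0.985), Iigp1 (r = 0.979) and Dennd5a (r = 0.979), all lower with acetate, by log2 fold changes of -0.50, -0.74 and -0.38. These values describe likeness over 10 samples that fall into 2 groups. With each gene taken as the deviation from its group mean, the closest to Lta were Usf1 (r = 0.891), H1f2 (r = 0.857) and Acbd4 (r = 0.851), of which Usf1 had a log2 fold change of -0.02 and the others were higher with acetate. These are the highest r among all genes compared, over only 10 samples, so values of this size may come from the selection alone. They were not tested.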

How the data were processed

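RNA-seq libraries of 10 samples were made with a NEBNext Ultra kit and sequenced on a NovaSeq instrument. The submitters' processing notes name fastp, HISAT2 2.0.5, StringTie 1.3.3b and featureCounts 1.5.0-p3; build, annotation and strand setting are not given in the sources used here. The authors deposited FPKM, 1 column per sample, beside each gene's length, an other, unnormalized column. FPKM times length, scaled by a total recovered for each sample from the steps of its low values, gave whole fragments for 100% of values (within 0.1). FPKM are not counts, so limma 3.58.1 (R 4.3.3; trend and robust moderation) was fitted on log2(FPKM + 0.1) for genes averaging 0.5 FPKM or more. Fold changes on this scale understate those of low genes. Genes were called at an adjusted p under 0.05. Ratios were compared by exact permutation tests (SciPy 1.17.1). Members, lists and rules were chosen with earlier results of these data known.

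On simulated data (15608 genes in the step) 95.5% of genes changed 2-fold and 37.3% of those changed 1.5-fold were called, with 5 of 15408 unchanged genes. Every simulated gene had the same spread beyond counting, only 66 or 67 genes were changed at each size, and no shift of whole samples was drawn. In the real data 36.5% of genes tested were called, and Fasl without acetate had a coefficient of variation of 35.6%. The simulated rates are therefore not those of the real comparison. The rule for naming covered the members, their receptors and genes of the pathway lists called with an absolute log2 fold change over 0.5. It also covered called neighbours of Lta within 50 kb and the genes closest to Lta. Named outside this rule were cell type markers, the further ligands, Adam17, Rhbdf2, Rc3h2, Zc3h12d, Hnrnpd, Elavl1, Bag6, Prrc2a and Ddx39b. Alternatives were other pseudocounts, filters, scalings, moderation, voom on the fragments, a replicate block, protein-coding genes alone, a stricter threshold and samples left out.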

Additional observations from a re-analysis of the deposited data

Results flagged for a closer look

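Of 26 groups of 5 values examined (the log2 FPKM of the 10 ligand genes and the 3 log2 ratios, in each group), 3 held a sample set apart from the others of its group, by a gap to the nearest sample of over 0.71 of the range of the group; chance gives about 1.3. All 3 were replicate 1 of CD8+4T1. Its log2 FPKM of Tnf (5.55 FPKM against 8.33 to 9.13 in the others) had a gap of 0.815 of the range, its log2 FPKM of Lta a gap of 0.714, and its log2 ratio of Ltb to Tnf, the highest of its group, a gap of 0.722. The ratio uses the same low Tnf value, so the 3 are not separate results and the comparison with 1.3 counts that value again. Replicate 1 of CD8+4T1 also had the fewest genes above 0 FPKM of its group, 22291. Without it the log2 fold change was 0.19 for Tnf and -1.39 for Lta.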

How the results depend on the processing

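Of the alternatives, Lta, Ltb and Tnfsf8 were called lower in all that were run. Over the 13 settings that kept the threshold, the main one included and single samples left out aside, the log2 fold change of Lta lay between -1.35 and -1.10 and that of Ltb between -0.64 and -0.41. With all samples at the same summed FPKM, Tnf (0.50), Fasl (0.67) and Tnfsf10 (0.43) became called, Tnfsf14 (-0.27) lost its call, and Tnfsf4 (0.00599), Tnfsf9 (0.0961) and the receptor gene Tnfrsf4 (0.0684) changed sign. With T cell marker scaling the same held for Tnf (0.55), Fasl (0.72), Tnfsf10 (0.48) and Tnfsf14 (-0.22), and Tnfsf11 (0.0380), Tnfsf4 (0.0585), Tnfsf9 (0.15) and Tnfrsf4 (0.12) changed sign. With voom on the recovered fragments Tnf (0.42), Fasl (0.59) and Tnfsf10 (0.35) became called and Tnfsf9 was 0.0212. The count of ligand genes called higher was 3 in each of these and 1 among protein-coding genes alone. There Tnf (0.32) had an adjusted p of 0.0492 in limma, against 0.0712 with a mean of at least 1 FPKM, where it was not called. Without replicate 1 of both groups Tnfsf9 was 0.0162. An adjusted p under 0.01 left 3702 of all genes called in place of 5742. The share of higher among all calls was 48.1% as listed, 77.9% with the same summed FPKM, 84.5% with T cell marker scaling and 65.5% with voom. Single samples left out gave 0 to 1 ligand genes called higher and ranges of 0.37 to 0.68 for Fasl (called without CD8+4T1 replicate 5 or CD8+4T1+NaAc replicate 1), -0.23 to -0.13 for Tnfsf11 (called without CD8+4T1+NaAc replicate 1), -0.24 to -0.12 for Tnfsf4 (called without CD8+4T1+NaAc replicate 5) and -0.14 to 0.0732 for Tnfsf9, whose sign changed without CD8+4T1 replicate 1 and without CD8+4T1+NaAc replicate 5.

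The replicate numbers did not pair the samples (correlations of deviations between same-numbered samples -0.03 to 0.07, mean 0.01, 2 of 5 samples correlating best with their own number). Blocking on the number left 5399 genes called, and of the ligands the same 4 lower; the 3 log2 ratios (-1.65, -0.69 and -0.97) had an exact permutation p of 0.0625, the smallest that this test allows. The cause of these changes was not otherwise tested. Of the 10 ligand genes Tnfsf9 had the fewest fragments, 45 to 103.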
